A study of Mus musculus with 2 samples.

Results

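Scn4b, Atp1b1 and Fxyd1 are 3 genes of sodium handling at the heart muscle cell membrane, chosen by name from the 27443 gene IDs found in either of the series' count tables. Their levels are described in single heart muscle cells of adult wild-type C57BL/6 mice, which were freed by enzymatic perfusion, sorted with a large-particle cytometer and sequenced by SCRB-seq, which works in plates and tags each captured RNA molecule with a cell barcode and a unique molecular identifier (UMI). In the multichamber study, cells of mice about 3 months old, not treated with ethanol, carry a chamber label, namely LA or RA for the left or right atrium and LV or RV for the left or right ventricle. In the live and fixed study, ventricular cells were sorted either after fixation, in which 800 µL of 100% ethanol was added to 200 µL of buffer, or live, with no ethanol. A minimum of 1000 gene UMIs and 500 genes per cell left 56 LA, 44 RA, 91 LV, 90 RV, 35 fixed and 31 live cells. The labels name no animal, sex or number of hearts, and the isolation protocol describes removal of the ventricle only. Each group is therefore 1 pool of cells, no test between groups was run, and the 95% intervals given here cover counting error only.

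The action potential of a heart muscle cell opens with sodium entering through a voltage-gated channel, and the sodium pump exports that sodium again in exchange for potassium, using ATP. The channel and the pump each consist of a large alpha subunit with smaller partners, and all 3 genes described here encode such partners. Scn4b encodes the beta-4 subunit of voltage-gated sodium channels, a single-pass membrane protein that modifies how the channel opens and closes. Atp1b1 encodes the beta-1 subunit of the sodium pump, which is needed for the pump to fold and reach the membrane. Fxyd1 encodes phospholemman, a small FXYD protein that restrains the pump until it is phosphorylated downstream of beta-adrenergic signalling.

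In the GENCODE M21 annotation of GRCm38, Scn4b spans chr9:45138395-45154152 on the plus strand, Atp1b1 chr1:164437109-164458355 on the minus strand and Fxyd1 chr7:31051678-31057199 on the minus strand. The 3 genes lie on different chromosomes, and Atp1b1 is the only one that overlaps another gene. That neighbour, Nme7, lies on the opposite strand and held 32 UMIs in the multichamber study and 16 in the live and fixed study. Because the strand setting of the counting is not given in the sources used here, reads of Atp1b1 and Nme7 cannot be told apart where the genes overlap. The 250 bases before each start site in the RefSeq table for GRCm38.p6 are shown because the genes differ in them, although no data in the series measured promoters. They run 5′ to 3′ on the gene's own strand, and capitals mark matches to 2 of the motifs searched, CCAAT (as ATTGG) and GGGCGG (as CCGCCC).
Scn4b, chr9:45138374-45138623, plus strand: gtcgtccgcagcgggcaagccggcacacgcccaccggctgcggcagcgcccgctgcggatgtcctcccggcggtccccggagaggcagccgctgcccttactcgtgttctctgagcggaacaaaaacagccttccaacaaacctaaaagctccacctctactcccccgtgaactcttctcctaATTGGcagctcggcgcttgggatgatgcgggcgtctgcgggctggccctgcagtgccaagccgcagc
Atp1b1, chr1:164458356-164458605, minus strand: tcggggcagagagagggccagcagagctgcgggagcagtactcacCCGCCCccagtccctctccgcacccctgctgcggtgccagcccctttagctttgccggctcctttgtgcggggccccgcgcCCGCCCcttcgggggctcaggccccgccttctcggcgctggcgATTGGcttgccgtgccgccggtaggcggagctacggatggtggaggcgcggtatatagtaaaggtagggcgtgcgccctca
Fxyd1, chr7:31054854-31055103, minus strand: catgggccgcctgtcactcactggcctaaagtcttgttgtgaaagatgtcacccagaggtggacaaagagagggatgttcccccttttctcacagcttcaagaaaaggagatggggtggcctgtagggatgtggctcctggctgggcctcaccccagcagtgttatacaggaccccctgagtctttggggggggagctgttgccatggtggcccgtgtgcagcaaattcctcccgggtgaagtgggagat
The Scn4b and Atp1b1 windows were rich in G and C, at 66% and 70.4%, and held 23 and 24 CpG pairs. The Fxyd1 window had 57.2% G and C and 3 CpG pairs, against medians of 52.4% and 6 over the 32851 windows of the table. CCAAT, read on either strand, lay at position -67 to -63 of Scn4b and -81 to -77 of Atp1b1, and 33.8% of all windows held it. GGGCGG occurred in Atp1b1 alone of the 3, starting at -205 and at -124, and 32.7% of all windows held it. TATAAA (12.4% of windows), CATTCC (12.6%), AGATAA (9.99%) and CANNTG (66.2%) were also searched on both strands and matched in none of the 3 windows. The RefSeq starts of Scn4b and Fxyd1 lie within the spans that GENCODE gives these genes. GENCODE lists 1 Scn4b transcript, which starts at 45138395, so most of the Scn4b window lies inside that transcript and not before it. The Fxyd1 window also lies inside the Fxyd1 span, and other transcripts of Fxyd1 can start elsewhere.

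Depth differed strongly between the pools. The kept cells had a median gene UMI count of 16146 (LA), 4436.5 (RA), 40953 (LV), 50503 (RV), 77150 (fixed) and 40367 (live). Levels below are CPM (counts per 1000000 nuclear-encoded UMIs), of which the pools held between 470095 (RA) and 2988611 (RV). The labels of the atrial cells went against their markers, since the atrial genes Nppa and Sln had 0 and 7 UMIs in all LA cells and 0 each in all RA cells, and Myl7 had 81 in LA and 0 in RA, so these cells are called by their label only. Cardiac muscle markers (6 of 6 detected in every pool) made up 3.81% (LA), 5.61% (RA), 4.82% (LV) and 5.07% (RV) of nuclear-encoded UMIs. Cells in which markers of other cell types passed 2% of nuclear-encoded UMIs numbered 19 of 56 LA, 27 of 44 RA, 5 of 91 LV and 8 of 90 RV cells, and 0 fixed and live cells. The multichamber cells came from 4 libraries, A to D, which shared 80 of their 84 cell barcode sequences, and the live and fixed study names no library; no 2 multichamber cells had identical counts. Each library held cells of all 4 chambers, but only 13 of the 100 atrial cells were in library D.

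Fxyd1 was found in nearly every ventricular cell. Its level in the summed pools ran from 273 to 342 CPM over the 4 chambers, but the median LA and RA cells lay below the median LV and RV cells. The LA pool held 255 UMIs, or 273 CPM (241 to 309), the RA pool 161, or 342 CPM (292 to 399.7), the LV pool 849, or 331 CPM (309 to 354), and the RV pool 1022, or 342 CPM (321 to 364). Fixed cells held 538 UMIs, or 222 CPM (204 to 241), and live cells 367, or 247 CPM (223 to 274). In order, RA, RV and LV did not differ beyond their intervals, while LV lay just above LA without overlap. The middle cell of each group had a Fxyd1 level of 181 CPM for LA, 79.3 CPM for RA, 348 CPM for LV, 338 CPM for RV, 203 CPM for fixed and 283 CPM for live cells. The median RA cell was thus far below the RA pool, and a single RA cell of library C, with 183391 gene UMIs in all, held 80 of the 161 RA UMIs. In the other 5 groups the top cell held from 4.005% (LV) to 13.4% (live) of the gene's UMIs.

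In the summed pools, Atp1b1 had its highest levels under the atrial labels. LA cells had 114 UMIs and 122 CPM (101 to 147), RA cells 39 UMIs and 83.0 CPM (59.0 to 113), LV cells 136 UMIs and 53.0 CPM (44.5 to 62.7), and RV cells 183 UMIs and 61.2 CPM (52.7 to 70.8). Neighbours in this order overlapped at every step, though LA lay above both ventricles. Fixed cells had 70 UMIs and 28.9 CPM (22.5 to 36.5), below the 83 UMIs and 55.9 CPM (44.6 to 69.3) of live cells. The median cell held no Atp1b1 UMI in LA, RA and LV, and stood at 29.2 CPM for RV, 14.6 CPM for fixed and 22.5 CPM for live cells. The highest single cell reached 415 CPM for LA, 598 CPM for RA, 777 CPM for LV and 524 CPM for RV. Only 10 of 44 RA cells held an Atp1b1 UMI. The RA cell of library C with the most Fxyd1 UMIs also held 16 of the 39 RA Atp1b1 UMIs.

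Scn4b had the fewest UMIs of the 3 genes in all 4 chambers and in live cells, but not in fixed cells. LA cells held 20 UMIs, or 21.4 CPM (13.1 to 33.1), RA cells 3 UMIs, or 6.38 CPM (1.32 to 18.7), LV cells 74 UMIs, or 28.8 CPM (22.6 to 36.2), and RV cells 74 UMIs, or 24.8 CPM (19.4 to 31.1). The RA value rests on 1 UMI in each of 3 cells and equals the level of the 3-count floor of that pool. Fixed cells held 92 UMIs, or 37.9 CPM (30.6 to 46.5), and live cells 46 UMIs, or 31.0 CPM (22.7 to 41.4). Every neighbouring pair in the order of Scn4b levels had overlapping intervals. The median cell had no Scn4b UMI in any group but the fixed cells, where it stood at 15.9 CPM.

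**Figure D1:**
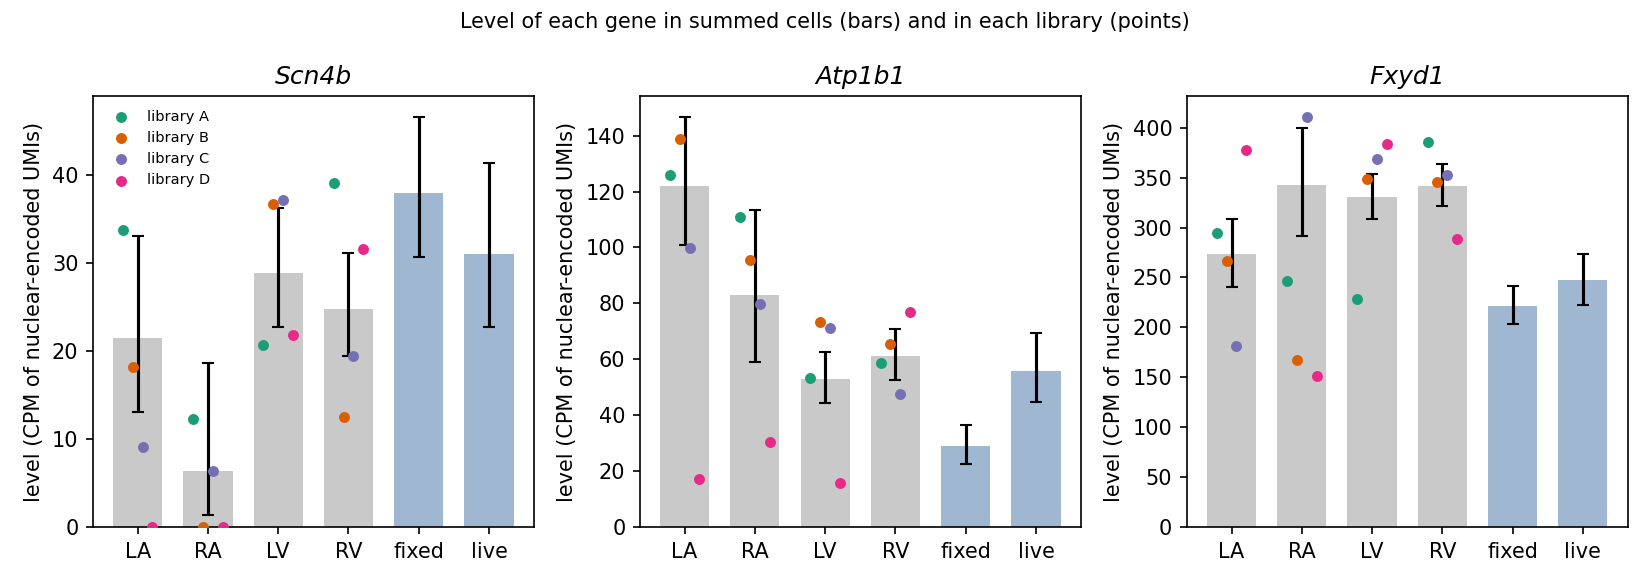
Level of Scn4b, Atp1b1 and Fxyd1 in CPM of nuclear-encoded UMIs (vertical axis) in the summed cells of each group (bars, with 95% Poisson intervals for counting error) and, for the chambers, in each of libraries A to D (points). Atp1b1 bars are higher under both atrial labels, at 122 and 83.0 CPM, than under the ventricular labels, at 53.0 and 61.2 CPM, and the library D points of LA, RA and LV are the lowest for Atp1b1, those of LA and RA resting on 1 UMI each.

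The first comparison the labels allow is of atrial with ventricular cells. In the summed pools, Atp1b1 stood at 109 CPM in atrial and 57.4 CPM in ventricular cells, a ratio of 1.90 (1.55 to 2.31). Scn4b stood at 16.4 CPM in atrial and 26.6 CPM in ventricular cells, a ratio of 0.615 (0.378 to 0.958), and Fxyd1 at 296 CPM in atrial and 337 CPM in ventricular cells, a ratio of 0.880 (0.789 to 0.979). Atp1b1 was thus at least 1.5-fold higher, Scn4b at least 1.5-fold lower and Fxyd1 neither. Of all 11682 genes with at least 30 UMIs over both pools, 17% were at least 1.5-fold higher and 23.2% at least 1.5-fold lower, together 40.2%, and their median log2 ratio was -0.07. Changes past that size were therefore common in these pools.

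**Figure D2:**
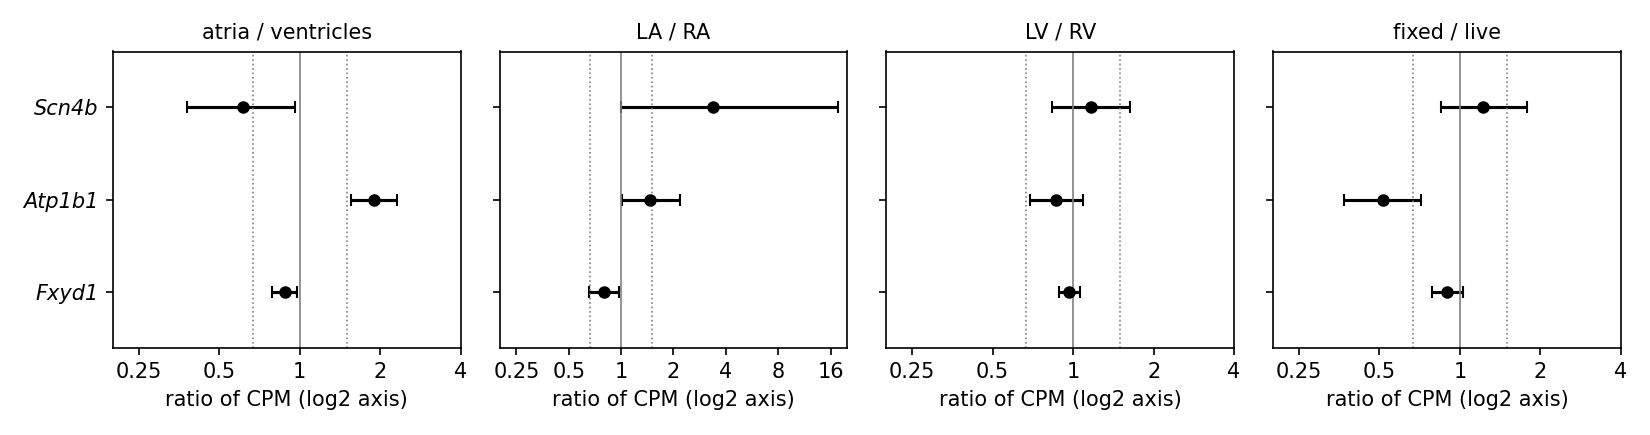
Ratio of CPM between groups for each gene on a log2 axis, with exact 95% intervals for counting error; the solid line marks equal levels and the dotted lines a 1.5-fold difference. Atp1b1 is at 1.90 in atria over ventricles and 0.516 in fixed over live cells, and all 3 genes lie near 1 in LV over RV.

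The Atp1b1 difference depended on what the counts were set against. Atrial cells held 1.53 Atp1b1 UMIs each and ventricular cells 1.76, and per 1000 spike-in UMIs, which gives amount and not share if every well received the same spike-in, atrial cells had 2.64 and ventricular cells 3.74, a ratio of 0.707 (0.579 to 0.859). On that scale Atp1b1 was lower in atrial cells, as were Scn4b (0.398 in atrial and 1.74 in ventricular cells, ratio 0.229, 0.141 to 0.357) and Fxyd1 (7.19 in atrial and 21.96 in ventricular cells, ratio 0.328, 0.294 to 0.364). By chamber, Atp1b1 UMIs per cell were 2.04 for LA, 0.886 for RA, 1.49 for LV and 2.03 for RV, so the lower atrial mean per cell came from RA. With each cell weighted equally instead of by its UMIs, the Atp1b1 ratio in CPM was 1.10, under 1.5-fold.

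The difference also followed the depth of the cells. Among cells with 50000 or more gene UMIs, Atp1b1 stood at 151 CPM in 12 atrial cells and 57.7 CPM in 84 ventricular cells, a ratio of 2.62 (2.06 to 3.31). Among cells with 20000 to 50000 it stood at 80.1 CPM in 21 atrial and 59.5 CPM in 72 ventricular cells (1.34, 0.887 to 2.0002), and among cells with 5000 to 20000 at 40.4 CPM in 21 atrial and 35.5 CPM in 20 ventricular cells (1.14, 0.305 to 4.26). The deep atrial cells carried the pooled difference, and the shallower bands did not resolve one. Mesothelial markers moved with Atp1b1 in a few of these cells: all 4 were detected in LA, RA, LV and RV, they summed to 0.159% (LA), 0.0174% (RA), 0.00440% (LV) and 0.00616% (RV) of nuclear-encoded UMIs, and they passed 0.5% in 2 LA cells and 1 RA cell. Those 3 cells held 35 of the 153 atrial Atp1b1 UMIs, at 217 CPM (151 to 302), against 94.9 CPM (78.6 to 114) in the other 97 atrial cells. The LA cell with the most Atp1b1, of library B with 24 UMIs, was among them and had only 679.6 CPM of the ventricular light chain gene Myl2. The LA cells ranked 2 and 3 for Atp1b1 had 10591 and 11358 CPM of Myl2. That was within the 7888 to 12173 CPM of the LV cells ranked 1 to 3. Without the 3 mesothelial-rich cells the atrial to ventricular ratio of Atp1b1 was 1.65 over all depths and 2.30 (1.75 to 3.01) among cells with 50000 or more gene UMIs.

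**Figure D3:**
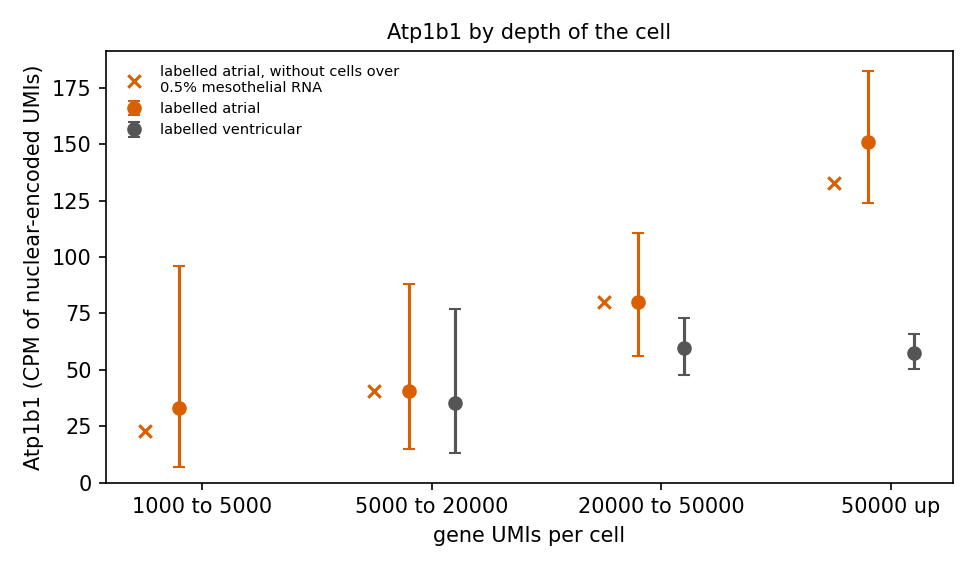
Atp1b1 level in CPM (vertical axis) of atrial-labelled and ventricular-labelled cells in 4 bands of gene UMIs per cell, with 95% Poisson intervals; crosses give the atrial level without cells over 0.5% mesothelial RNA. In the deepest band the atrial cells stand at 151 CPM, or 133 CPM without those cells, and the ventricular cells at 57.7 CPM; the 5 ventricular cells of the shallowest band held no Atp1b1 UMI and are not drawn.

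Within libraries, the atrial to ventricular ratio of Atp1b1 was 2.20 (1.50 to 3.20) in A, 1.96 (1.40 to 2.72) in B, 1.49 (0.981 to 2.21) in C and 0.455 (0.0540 to 1.71) in D, where the 13 atrial cells held 2 UMIs and the ventricular cells 66. Atp1b1 was higher in atrial cells of 3 of 4 libraries. The Scn4b ratio was 1.00 (0.477 to 1.96) in A, 0.707 (0.281 to 1.57) in B and 0.265 (0.0526 to 0.830) in C. In D the atrial cells held 0 and the ventricular cells 37 UMIs, with an interval of the ratio from 0 to 1.57. Without library C the pooled Scn4b ratio was 0.766, and with all gene UMIs as the total it was 0.685, both under 1.5-fold, so the call rests on that library and on the choice of total. Without library A the ratio was 0.428, and in read counts 0.235. Scn4b UMIs of atrial cells had fewer reads each, 2.65 in LA and 1 in RA, against 5.61 in LV and 7.86 in RV. Among cells with 50000 or more gene UMIs the Scn4b ratio was 0.756 (0.388 to 1.36). Among cells with 20000 to 50000 it was 0.444 (0.170 to 0.980), and with 5000 to 20000 it rested on 2 UMIs on each side. The Fxyd1 ratio was 0.939 in A, 0.743 in B, 0.978 in C and 0.889 in D, under 1.5-fold in all of them. In C a single atrial cell held 80 of the 149 atrial Fxyd1 UMIs. Without the top cell on each side the ratio was 0.863 in A, 0.689 in B, 0.680 (0.521 to 0.876) in C and 0.710 in D. In the pools it was then 0.793. With each cell weighted equally, however, Fxyd1 was 0.622 of the ventricular level. Among cells with 5000 to 20000 gene UMIs it stood at 202 CPM in atrial and 378 CPM in ventricular cells (0.534, 0.334 to 0.837), and among cells with 50000 or more at 325 CPM in atrial and 327 CPM in ventricular cells (0.992, 0.858 to 1.14). Erythroid markers, both detected in all 4 chambers, had a per-cell median of 0.857% (LA), 4.53% (RA), 0.405% (LV) and 0.291% (RV). In the 46 atrial cells over 2% of all non-myocyte markers, Fxyd1 stood at 136 CPM (85.9 to 203), against 318 CPM (288 to 352) in the other 54. The other 2 genes were also lower in the 46 cells. Atp1b1 stood at 53.0 against 117 CPM, and Scn4b, from 1 UMI, at 5.89 against 17.8 CPM. The part of erythroid and other non-myocyte RNA in the values of shallow atrial cells was not tested.

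Between the atrial labels, LA over RA, Atp1b1 had a ratio of 1.47 (1.01 to 2.17), Fxyd1 of 0.797 (0.652 to 0.977) and Scn4b, with 23 UMIs over both pools and so below the minimum of 30, of 3.36 (0.995 to 17.6). Neither gene past the minimum was 1.5-fold apart, while 31.6% of the 5715 genes tested were at least 1.5-fold higher and 17.4% at least 1.5-fold lower, 49% in all. Atp1b1 lay just under that cut. It passed the cut per spike-in UMI (1.89, 1.30 to 2.79), in read counts (1.87), without the top cell on each side (1.59), without library A (1.56) and with no cell filter (1.52). Under the other alternatives Atp1b1 stayed below the cut, for example at 1.31 without library B. The Fxyd1 direction rested on 1 cell and 1 library. Without the top cell on each side the ratio was 1.09, without library C it was 1.39, and with equal weight per cell it was 1.25. Within libraries it was 1.20 (0.734 to 2.05) in A, 1.59 (0.749 to 4.05) in B, 0.442 (0.261 to 0.711) in C and 2.49 (0.920 to 8.42) in D, so Fxyd1 was higher in LA in 3 of 4 libraries. The Atp1b1 ratio within libraries was 1.14 in A, 1.45 in B, 1.25 in C and 0.566 in D, all with intervals that include 1, and with equal weight per cell it was 0.951. Scn4b had no more than 2 RA UMIs in any library, and with equal weight per cell its ratio was 0.986.

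Between the ventricles, LV over RV, all 3 pooled ratios had intervals that include 1. Scn4b had a ratio of 1.16 (0.832 to 1.63), Atp1b1 of 0.866 (0.688 to 1.09) and Fxyd1 of 0.968 (0.882 to 1.06). None was 1.5-fold apart, where 28.8% of 10812 genes were. The counts of Fxyd1 limit its pooled difference to about 0.882 to 1.06 in terms of counting error, the narrowest interval of the 3. The 4 libraries differed from each other by more than that. The Fxyd1 ratio was 0.593 (0.481 to 0.729) in library A, with 229 CPM in LV and 386 CPM in RV, 1.01 (0.836 to 1.22) in B, 1.05 (0.883 to 1.24) in C and 1.33 (1.10 to 1.61) in D, with 384 CPM in LV and 289 CPM in RV. Leaving out the top cell on each side left the ratio at 0.637 in A and 1.31 in D. Atp1b1 had a ratio of 0.906 (0.555 to 1.48) in A, 1.12 (0.726 to 1.73) in B, 1.50 (0.970 to 2.32) in C and 0.203 (0.0922 to 0.401) in D. In library D, 24 LV cells held 10 Atp1b1 UMIs, or 15.6 CPM, and 22 RV cells held 56, or 76.9 CPM, and without the top cell on each side the ratio was 0.249 (0.1002 to 0.546). Without library D the pooled Atp1b1 ratio was 1.17. Scn4b had a ratio of 0.529 (0.253 to 1.06) in A, 2.93 (1.30 to 7.23) in B, 1.91 (0.995 to 3.74) in C and 0.691 (0.329 to 1.40) in D. For each gene the libraries thus fell on both sides of 1, and without library A the pooled Scn4b ratio was 1.51.

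Ethanol fixation was compared with live sorting in the other study. Fixed cells had Atp1b1 at 28.9 CPM and live cells at 55.9 CPM, a ratio of 0.516 (0.370 to 0.718), at least 1.5-fold lower. Fxyd1 had a ratio of 0.897 (0.784 to 1.03) and Scn4b of 1.22 (0.850 to 1.78), neither past 1.5-fold. Here 40% of 7860 genes were at least 1.5-fold lower in fixed cells and 10.8% at least 1.5-fold higher, together 50.8%, and the median log2 ratio over all of them was -0.38. Relative to that median, Atp1b1 stood at 0.674 (0.483 to 0.937), Fxyd1 at 1.17 (1.02 to 1.34) and Scn4b at 1.60 (1.11 to 2.33). Scaling by edgeR TMM factors moved the all-gene median by 0.50 and median-of-ratios factors by 0.56 on the log2 scale. The Atp1b1 ratio was then 0.729 and 0.763, no longer past 1.5-fold, the Fxyd1 ratio was above 1 at 1.27 and 1.33, and the Scn4b ratio was past 1.5-fold at 1.73 and 1.81. Per 1000 spike-in UMIs, fixed cells had 7.69 Atp1b1, 59.1 Fxyd1 and 10.1 Scn4b UMIs, and live cells 23.2 Atp1b1, 103 Fxyd1 and 12.8 Scn4b UMIs. A set of loci was also left out of the total. It joined all pseudogenes and rRNA genes with loci more than 8-fold apart from the ventricle-labelled cells of the other study. The set held 46.0% of nuclear-encoded UMIs in fixed and 43.7% in live cells. Without it in the total, the ratio was 0.539 for Atp1b1, 0.936 for Fxyd1 and 1.28 for Scn4b. No library is named for these cells, so a difference between preparations and one between fixed and live cells cannot be told apart.

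Both pump genes can be set against each other within the same pools of summed cells, which does not depend on the total. Atp1b1 made up 30.9% (26.2 to 35.9) of the UMIs of Atp1b1 and Fxyd1 together for LA, 19.5% (14.2 to 25.7) for RA, 13.8% (11.7 to 16.1) for LV and 15.2% (13.2 to 17.3) for RV. The 153 of 569 UMIs in atrial cells gave 26.9% (23.3 to 30.7), against 14.6% (13.1 to 16.1) in ventricular cells. These pooled shares weigh deep cells most. Atrial cells held 108 Atp1b1 and 232 Fxyd1 UMIs at 50000 or more gene UMIs, 36 and 139 at 20000 to 50000, and 6 and 30 at 5000 to 20000. In the same bands ventricular cells held 223 and 1265, 90 and 541, and 6 and 64. The atrial share of Atp1b1 was thus highest in the deepest band. Without the 3 atrial cells rich in mesothelial markers, which held 35 Atp1b1 and 8 Fxyd1 UMIs, the atrial share was 118 of 526 UMIs, or 22.4% (18.9 to 26.2), and the LA share 24.4% (19.8 to 29.4). By library, the share was 30.1% in atrial and 15.5% in ventricular cells of A, 34.4% in atrial and 16.6% in ventricular cells of B, 19.5% in atrial and 13.7% in ventricular cells of C, and 6.90% in atrial and 12.6% in ventricular cells of D. The share was higher in atrial cells of A, B and C and lower in D, where the atrial cells had 29 UMIs of both genes. In fixed cells it was 11.5% (9.09 to 14.3) and in live cells 18.4% (15.0 to 22.3), whose intervals do not overlap. These shares compare groups in transcripts counted and give no ratio of subunits in the protein complex.

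**Figure D4:**
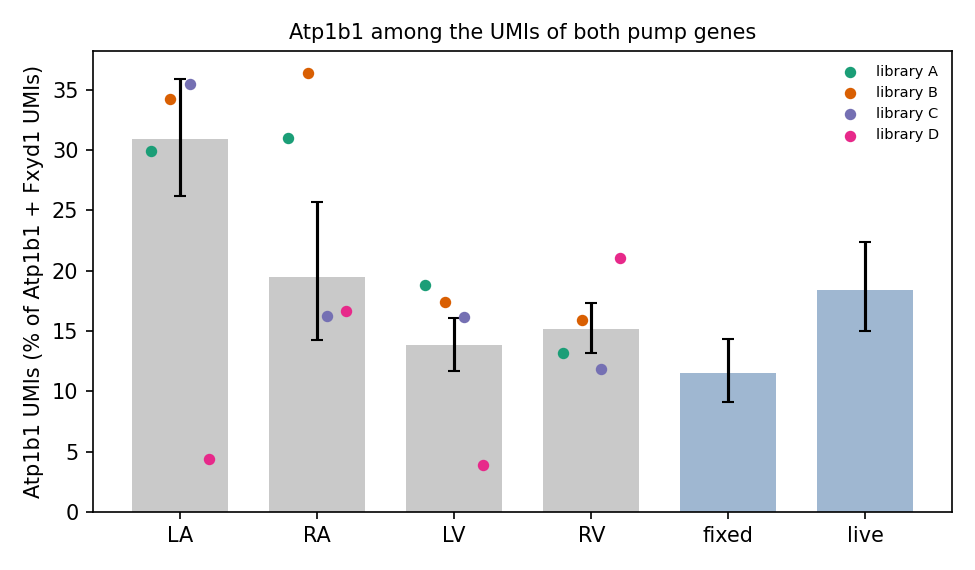
Percent of Atp1b1 among the UMIs of Atp1b1 and Fxyd1 (vertical axis) in each group (bars, with exact 95% binomial intervals) and in each library of the chambers (points). LA is highest at 30.9% and fixed cells lowest at 11.5%, and library D has low points in LA, from 1 of 23 UMIs, and in LV, from 10 of 256.

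In terms of cells, a Fxyd1 UMI was found in 66.1% of LA, 52.3% of RA, 93.4% of LV, 93.3% of RV, 91.4% of fixed and 90.3% of live cells. For Atp1b1 the shares were 39.3% of LA, 22.7% of RA, 38.5% of LV, 57.8% of RV, 54.3% of fixed and 54.8% of live cells. Scn4b was found in 21.4% of LA, 6.82% of RA, 29.7% of LV, 32.2% of RV, 57.1% of fixed and 45.2% of live cells. These shares follow depth, and no sorted cell type that lacks the genes was available to show the share that free RNA gives. When cells were thinned to 5000 gene UMIs, which left out 20 LA, 26 RA, 2 LV, 3 RV, 1 fixed and 0 live cells, Fxyd1 was found in 48.9% of LA, 46.4% of RA, 61.8% of LV, 57.9% of RV, 55.5% of fixed and 58.7% of live cells. Atp1b1 was then found in 22.2% of LA, 18.4% of RA, 10.98% of LV, 14.1% of RV, 9.54% of fixed and 14.5% of live cells, the same order of atrial over ventricular and of live over fixed as its CPM. Thinned Scn4b was found in 6.13% of LA, 1.55% of RA, 7.47% of LV, 6.73% of RV, 12.6% of fixed and 11.5% of live cells.

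**Figure D5:**
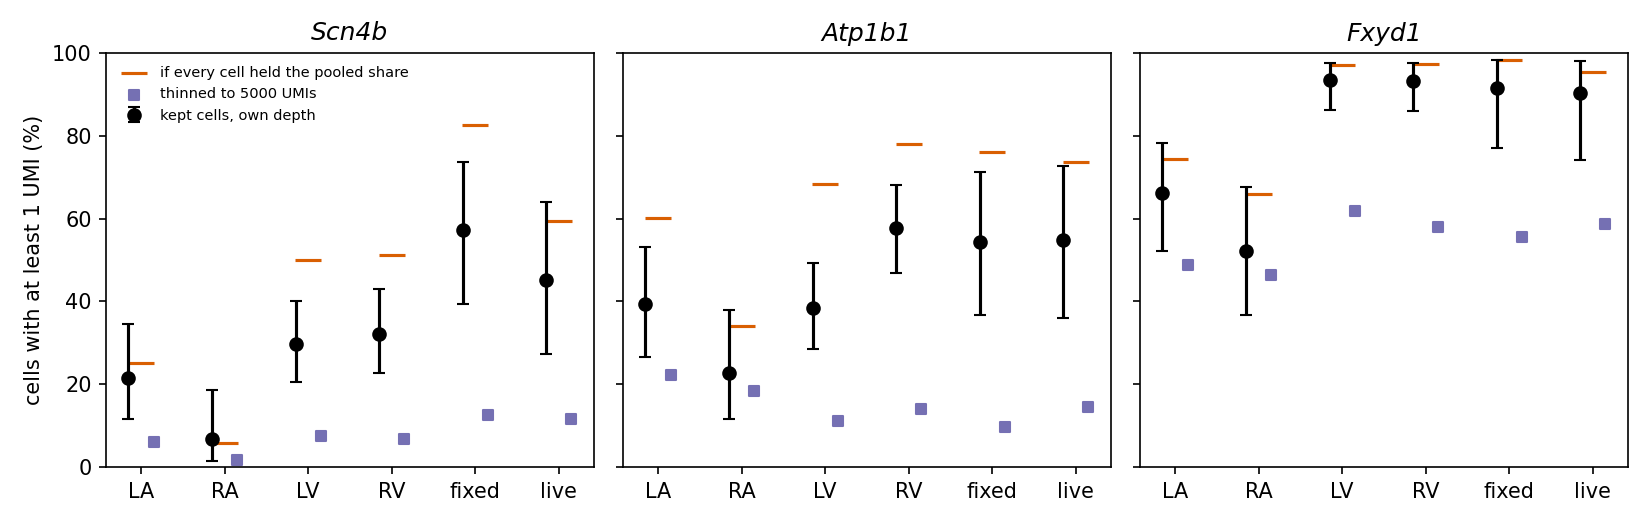
Percent of cells with at least 1 UMI of each gene (vertical axis) at the cells' own depth (circles, with exact 95% binomial intervals), after thinning to 5000 gene UMIs (squares), and as it would be if every cell held the gene at its pool's share (dashes). Atp1b1 circles lie under the dashes in every group, in LV and RV at 38.5 and 57.8% against 68.4 and 77.9%. Scn4b circles lie under the dashes in every group but RA, and Fxyd1 circles lie close to the dashes in LV and RV.

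In every group fewer cells held an Atp1b1 UMI than an even spread would give, and for Scn4b the same held in every group but RA. If each LV cell held Atp1b1 at the share of its pool, 68.4% would show a UMI, against the 38.5% observed, and in RV the same reckoning gave 77.9% against 57.8% observed. For Scn4b it gave 50.03% against 29.7% observed in LV and 51.3% against 32.2% in RV, and for Fxyd1 97.0% against 93.4% in LV. For Atp1b1 it gave 60.1% against 39.3% observed in LA and 34.1% against 22.7% in RA. In fixed cells Atp1b1 had 76.1% against 54.3%, and in live cells 73.7% against 54.8%. Scn4b had 82.6% against 57.1% in fixed cells and 5.77% against 6.82% in RA. The same reckoning over all genes is not given here. The variance of thinned counts over their mean, which is 1 for evenly spread molecules, was 3.51 for Atp1b1, 2.20 for Scn4b and 1.62 for Fxyd1 in 76 LV cells thinned to 20000 gene UMIs. In 80 RV cells it was 1.99, 1.97 and 2.03 in the same gene order, and the median over all genes with a mean of at least 0.05 was 2.13 in LV and 1.96 in RV. Scn4b in LV and all 3 genes in RV were thus near the median gene, while in LV Atp1b1 was above it and Fxyd1 below it. That placing is approximate. The medians here came from a single thinning draw and the values of the 3 genes from the mean of 100 draws, and the genes behind the medians were not matched to the 3 in mean count. A single LV cell of library B held 12 Atp1b1 UMIs among 25348 gene UMIs, and the Atp1b1 value without that cell was not computed. In 34 fixed cells it was 1.47 for Atp1b1, 1.86 for Scn4b and 2.24 for Fxyd1, beside a median gene at 1.48, and in 23 live cells 1.44, 2.15 and 1.79 in that order, beside 1.47. UMIs of all 3 genes were found together in 10 of 56 LA, 2 of 44 RA, 10 of 91 LV, 15 of 90 RV, 15 of 35 fixed and 8 of 31 live cells. LV and RV each had 6 cells with a UMI of none of them.

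Among ventricle-labelled cells with at least 20000 gene UMIs, the 3 genes did not follow each other closely. Across 156 such cells, after library and label means were subtracted, Pearson's r of log2(CPM + 50) was -0.15 for Scn4b with Atp1b1, 0.20 for Scn4b with Fxyd1 and -0.03 for Atp1b1 with Fxyd1, and with all cells thinned to 5000 nuclear-encoded UMIs it was 0.05, -0.02 and -0.06. In 57 live and fixed cells the values were -0.15, 0.07 and 0.11. The 5 genes most like Fxyd1 among 2370 genes were Ttc41 (r = 0.59), Ndufa3 (0.56), Uqcrb (0.55), Cox7c (0.55) and Cox6c (0.55). Ndufa3 encodes a subunit of respiratory complex I, Uqcrb of complex III, and Cox7c and Cox6c of cytochrome c oxidase. Over all 2370 genes the median r with Fxyd1 was 0.07 and the 99th percentile 0.50. In live and fixed cells the r of the 5 genes with Fxyd1 was 0.42 for Ttc41, 0.22 for Ndufa3, 0.23 for Uqcrb, 0.30 for Cox7c and 0.27 for Cox6c. In thinned ventricle-labelled cells it was between 0.08 and 0.26. In thinned live and fixed cells it was between -0.01 (Cox6c) and 0.20 (Ndufa3). The pseudogene Fabp3-ps1 lies within Ttc41 in the annotation, so its counts are uncertain. The genes most like Scn4b (Prdx6, Acot13, Gpsm1, Glrx5 and Ube2m, r 0.28 to 0.35) and those among the most like Atp1b1 (Angptl4, Lrrc2, Gm26745 and Ndufb5, r 0.26 to 0.30) had r between -0.31 and 0.15 in live and fixed cells. All of these cells share libraries and differ in depth.

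A list of 41 other genes of the sodium channel, pump, FXYD, sodium-calcium and sodium-hydrogen exchanger families and the channel-binding fibroblast growth factor homologues gives the surroundings of these values. In atrial over ventricular cells, 22 of the 41 had at least 30 UMIs, of which 2 were at least 1.5-fold higher, 9 lower and 11 neither, beside 17% higher and 23.2% lower over all genes. Their median log2 ratio was -0.47, beside -0.07 over all genes. Slc8a1, the sodium-calcium exchanger that extrudes calcium using the sodium gradient, stood at 586 CPM in atrial and 819.7 CPM in ventricular cells, a ratio of 0.715 (0.663 to 0.771). Fgf13, which binds voltage-gated sodium channels and changes their gating, stood at 416 CPM in atrial and 619 CPM in ventricular cells (0.672, 0.615 to 0.734). Both were lower in atrial cells of libraries A, B and D and higher in C, where the Slc8a1 ratio was 1.24 (1.09 to 1.41) and the Fgf13 ratio 1.13 (0.966 to 1.31). In C a single atrial cell held 171 of 310 Slc8a1 UMIs and a single one 148 of 220 Fgf13 UMIs, and without the top cell on each side both were lower there too, at 0.827 (0.686 to 0.990) for Slc8a1 and 0.579 (0.447 to 0.739) for Fgf13. Atp1b3, another beta subunit of the pump, had 57 atrial and 170 ventricular UMIs and a ratio of 1.33 (0.965 to 1.80), in the same direction as Atp1b1 with an interval that includes 1. Fxyd5 and Fxyd6, pump regulators of the FXYD family, had ratios of 0.504 (0.267 to 0.881) and 0.659 (0.400 to 1.04). A single ventricular cell of library A held 66 of the 110 ventricular Fxyd5 UMIs, and without the top cell on each side the direction turned, at 1.18 (0.584 to 2.23). Slc9a2, a sodium-hydrogen exchanger, had 25 atrial and 43 ventricular UMIs and a ratio of 2.30 (1.35 to 3.85), or 1.87 (0.986 to 3.42) without the top cell on each side, and its relative Slc9a8 a ratio of 1.00 (0.542 to 1.76).

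Between the atrial labels, 7 of the 41 genes had at least 30 UMIs, of which 1 was at least 1.5-fold higher in LA, 4 lower and 2 neither, beside 31.6% higher and 17.4% lower over all genes. Their median log2 ratio was -0.65, beside 0.11 over all genes. Slc8a1 had a ratio of 0.530 (0.461 to 0.609) and Fgf13 of 0.454 (0.385 to 0.536), and both were lower in LA in libraries A, B and C. In library D Slc8a1 was 1.54 (0.917 to 2.67) and Fgf13 0.792 (0.327 to 1.99). A single RA cell held 171 of 401 Slc8a1 UMIs and a single one 148 of 307 Fgf13 UMIs, and without the top cell on each side the pooled ratios were 0.607 (0.514 to 0.719) for Slc8a1 and 0.599 (0.489 to 0.736) for Fgf13. In LV over RV, 19 genes had at least 30 UMIs, of which 6 were at least 1.5-fold higher, 1 lower and 12 neither, beside 16.9% higher and 11.9% lower over all genes. Their median log2 ratio was 0.23, beside 0.04 over all genes. Slc8a1 (0.974, 0.918 to 1.03) and Fgf13 (0.974, 0.910 to 1.04) were near equal in the pooled ventricles, as Fxyd1 was. Without the top cell on each side the ratios were 0.921 (0.866 to 0.980) for Slc8a1 and 0.924 (0.860 to 0.992) for Fgf13. The libraries differed by more. The Slc8a1 ratio ran from 0.696 (0.619 to 0.780) in D to 1.27 (1.11 to 1.44) in C. The Fgf13 ratio ran from 0.751 (0.657 to 0.858) in D to 1.27 (1.10 to 1.46) in A. Slc9a2 had 36 LV and 7 RV UMIs, a ratio of 5.99 (2.63 to 15.9), and was higher in LV in all 4 libraries. Fxyd5 had 85 LV and 25 RV UMIs, a ratio of 3.96 (2.51 to 6.46), but 1 LV cell of library A held 66 of the 85, and without the top cell on each side the ratio was 1.17 (0.588 to 2.34). Atp1b3 had 98 LV and 72 RV UMIs, a ratio of 1.59 (1.16 to 2.18), with 1 LV cell of library A holding 30 of the 98 and a ratio under 1 in library C; without the top cell on each side it was 1.33 (0.924 to 1.91). In fixed over live cells, 12 genes had at least 30 UMIs, of which 2 were at least 1.5-fold higher, 7 lower and 3 neither, beside 10.8% higher and 40% lower over all genes. Their median log2 ratio was -0.84, beside -0.38 over all genes. The fixed cells' level was 156 CPM for Fgf13, against 455 CPM for live cells (0.343, 0.301 to 0.389), 248 CPM for Slc8a1, against 543 CPM for live cells (0.456, 0.410 to 0.508), and 14.0 CPM for Atp1b3, against 38.4 CPM for live cells (0.365, 0.231 to 0.568). All of these 3 were lower in fixed cells by more than Fxyd1 was, and both pump beta subunit genes described here, Atp1b1 and Atp1b3, were lower. Slc9a2 had 26 UMIs in fixed and 14 in live cells, a ratio of 1.14 (0.572 to 2.35), but 1 fixed cell held 13 of the 26, and without the top cell on each side the ratio was 0.791 (0.313 to 2.10).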

How the data were processed

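The authors deposited counts. Each study has a UMI table and a read table, not normalized, with genes in rows and cell barcodes in columns, and a per-cell sheet that names the chamber or fixation state and, for the multichamber study, the library. Its deposited percent columns, such as the spike-in share, were not used. The submitters' processing notes name STAR 2.5.4b, featureCounts and GRCm38. The sources used here name no annotation, strand option or UMI tool. The UMI tables had 24522 and 22679 gene IDs; 24489 and 22648 of them, with all 3 genes, had a symbol in GENCODE M21. A further 45 barcode columns that carry no label were not used.

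Kept cells passed 1000 gene UMIs and 500 genes, and their UMIs were summed by label into pools of 733462 to 5259330 gene UMIs. CPM were computed over nuclear-encoded UMIs. Levels have exact Poisson intervals, and shares and ratios exact Clopper-Pearson intervals, all at 95%. A gene was counted as apart from 1.5-fold on, given 30 or more UMIs in both pools together, with a floor of 3 counts where a pool had 0. Reads per nuclear-encoded UMI averaged 7.91 in the multichamber and 16.2 in the other study. Since the labels name no animals, nothing was tested between groups. Doublets were not called. The interval code was tested on simulated data.

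The genes, lists and rules were chosen with earlier results of these data known. The rule named other sodium-family genes only from 100 UMIs over both studies, and for each of the 3 genes the 5 genes of highest r; some results under it are not reported here. Alternatives covered the total and its scaling (edgeR TMM among them), the weight of cells, reads for UMIs, and cell and gene minimums. They also left out non-myocyte-rich cells, top cells, libraries, or the pseudogene, rRNA and study-dependent loci. Depth bands, thinning to 20000 UMIs, spike-in scaling, and leaving out cells over 0.5% mesothelial RNA or the top cell within libraries and of other sodium-family genes were added after seeing the data. RefSeq (GRCm38.p6) gave the promoter windows. Software versions were Python 3.11.15 with numpy 2.4.6, scipy 1.17.1, pandas 2.3.3 and matplotlib 3.10.9, and edgeR 4.0.16 under R 4.3.3.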

Additional observations from a re-analysis of the deposited data

How the results depend on the processing

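The 12 ratios were recomputed under 168 alternatives in all; 141 values stayed within the counting interval of the ratio as reported, 25 lay outside it and 2 changed the direction of a ratio past 1.5-fold. All values here are log2 ratios. Per spike-in UMI, atria over ventricles was -2.13 for Scn4b, -0.50 for Atp1b1 (against 0.92 in CPM) and -1.61 for Fxyd1, LA over RA was 0.033 for Fxyd1, and fixed over live was -0.35 for Scn4b, -1.59 for Atp1b1 and -0.79 for Fxyd1. With each cell weighted equally, atria over ventricles was 0.14 for Atp1b1 and -0.69 for Fxyd1, and LA over RA was -0.021 for Scn4b (against 1.75), -0.072 for Atp1b1 and 0.32 for Fxyd1. In read counts, atria over ventricles was -2.09 for Scn4b and -0.36 for Fxyd1, and LA over RA was -0.68 for Fxyd1. With all gene UMIs as the total, Fxyd1 was -0.029 in atria over ventricles and 0.091 in fixed over live cells. With edgeR TMM factors, fixed over live was -0.46 for Atp1b1 and 0.34 for Fxyd1, and with median-of-ratios factors 0.86 for Scn4b, -0.39 for Atp1b1 and 0.41 for Fxyd1. Without the top cell on each side, Fxyd1 in LA over RA was 0.13. The cause of these shifts was not tested.

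Leaving out each library in turn gave, for atria over ventricles, -1.23 to -0.38 for Scn4b, 0.83 to 1.05 for Atp1b1 and -0.27 to -0.08 for Fxyd1. For LA over RA it gave 1.53 to 1.85 for Scn4b, 0.39 to 0.64 for Atp1b1 and -0.47 to 0.48 for Fxyd1, and for LV over RV -0.11 to 0.59 for Scn4b, -0.52 to 0.22 for Atp1b1 and -0.20 to 0.15 for Fxyd1. The number of genes at least 1.5-fold apart depended on the minimum of UMIs. With minimums of 30, 10, 100 and none it was 4696, 7313, 1960 and 9423 for atria over ventricles, 2802, 5961, 616 and 7223 for LA over RA, 3113, 6065, 953 and 8077 for LV over RV, and 3991, 7319, 1372 and 9621 for fixed over live cells. No paired analysis was possible because the labels name no replicate of any group and no test was run; the libraries, which hold cells of all 4 chambers, give the ratios within each library reported above. Depth limits Scn4b most, with 3 UMIs in RA.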
